A study of Gallus gallus with 16 samples.

Results

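In the vagal region of the chick embryo, 150 genes had their highest level in double-positive cells at Hamburger-Hamilton stage HH25 and stood furthest above every other sorted population. They were taken from 24881 genes in the deposited count table, of which 23315 could be chosen. Each library's counts were divided by its total and expressed as counts per 1e6 counts (CPM), and log2(CPM + 1) was averaged over the 2 libraries of each group. A gene's score was the HH25 double-positive mean minus the highest of the other 7 group means, and the 150 highest scores were kept. Genes on chromosomes W, Z and 16 and genes spanning 300000 bases or more were not eligible. The choice therefore used every library. The difference between HH25 double-positive cells and the other groups is the way the genes were selected and is described below without a test.

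As background, neural crest cells delaminate from the dorsal neural tube and migrate, and those of vagal (caudal hindbrain) levels are known to form most of the enteric nervous system and part of the cardiac outflow tract. FOXD3 and SOX10 are transcription factors of the neural crest, and the NC2 and E2 reporters carry an enhancer of each gene, in that order. Cells with signal from both reporters (DP), from E2 alone (E2) and from neither (negative) were sorted from dissociated vagal regions of wild-type chick embryos, with both constructs given to every group. The groups were negative and E2 cells at HH10 after electroporation at HH4, and negative, E2 and DP cells at HH18 and at HH25 after electroporation at HH8 to HH9, with 2 libraries in each of the 8 groups. In comparisons of HH10 with HH18 cells, stage and time of electroporation therefore differ together and cannot be told apart. The youngest cells are labelled HH10 in the sample records, which is used here, but HH12 in the series text and in the count table's column names. Electroporation labels only the cells that take up the construct, so that negative cells can include crest cells that were not labelled. The labels name citrine for both reporters and do not say how the signals were told apart. They do not say whether libraries came from different embryos either, so that p-values cover only the spread among the libraries, part or all of which may be technical.

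The table identifies genes by Ensembl identifiers with exon coordinates on the galGal5 build. The files do not pair these identifiers with gene names, and 0 of them were found in the chicken RefSeq table of 25635 genes, so that no gene below is given a name or a role. For the same reason the double-positive label could not be checked against SOX10, FOXD3 or other markers of the crest or of other cell types.

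Libraries held between 4032540 and 45313160 counts. The 3 libraries numbered 3 in the table (HH10 negative, HH10 E2 and HH25 DP) stood apart. They were the deepest, with at least 37459288 counts, and their 100 most abundant genes took 10.2 to 10.9% of the counts, against 13.9 to 20.6% in the other 13 libraries. What the number marks is not given in the sources used here. The list, the clear genes, the next highest populations and the spans are therefore also given without them. The same holds for those counts of calls that changed beyond 1.5 times.

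As a set, the 150 genes were low outside HH25 DP cells, although single genes, described below, were not. The median of their levels was 25.4 and 45.6 CPM in the HH25 DP libraries 2 and 3, and between 0.0805 and 6.00 CPM in the 14 other libraries. Together they made up 0.949 and 1.43% of the counts of the HH25 DP libraries and 0.0856 to 0.296% of those of the other libraries. The median over all 14676 genes tested ran the other way in relation to them: it was 14.6 and 20.3 CPM in the HH25 DP libraries, below the medians of the 150 genes, and 10.4 to 17.4 CPM elsewhere, above them. In bulk libraries such as these, fewer cells expressing a gene and less RNA per cell cannot be told apart.

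**Figure D1:**
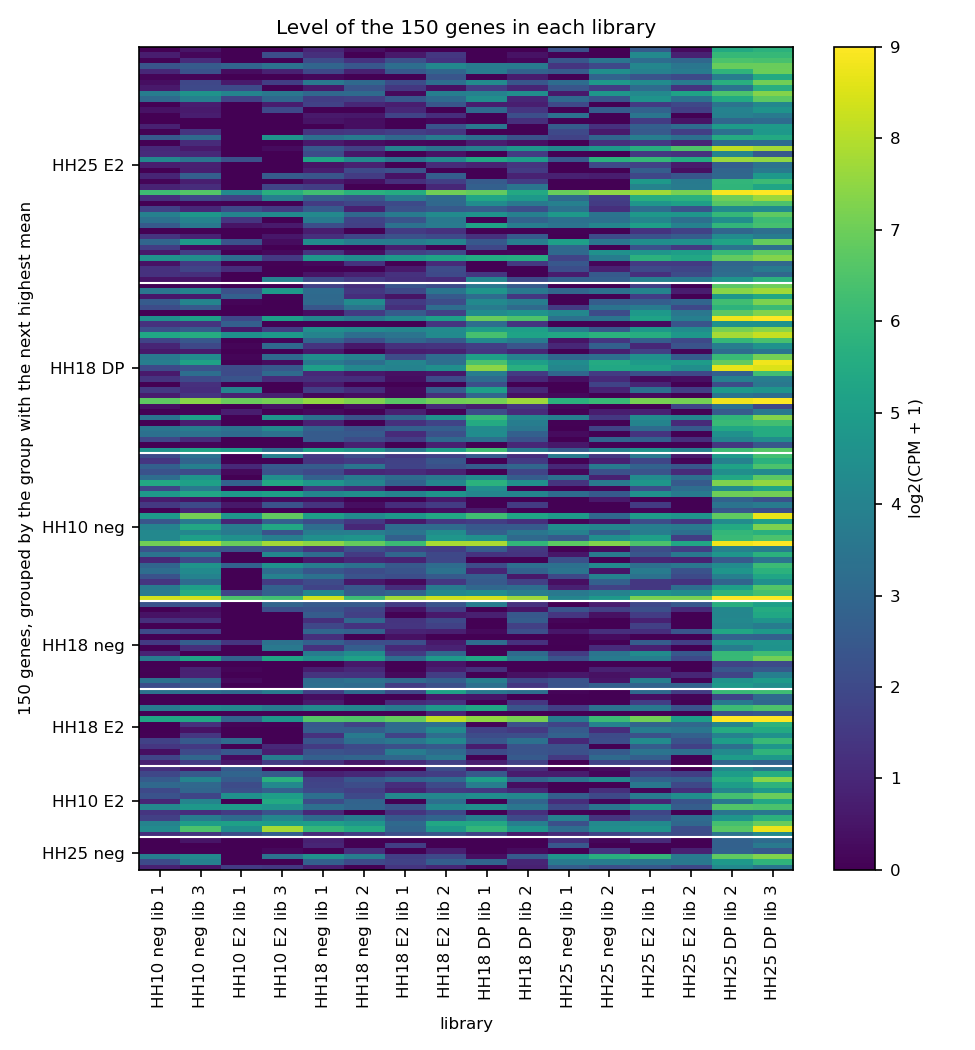
Level of each of the 150 genes (rows) in each of the 16 libraries (columns), as log2(CPM + 1), with neg for negative cells and lib for library. Rows are grouped by the population with the next highest mean, from 43 genes for HH25 E2 at the top to 6 for HH25 negative cells at the bottom, and the HH25 DP columns at the right are the brightest.

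**Figure D2:**
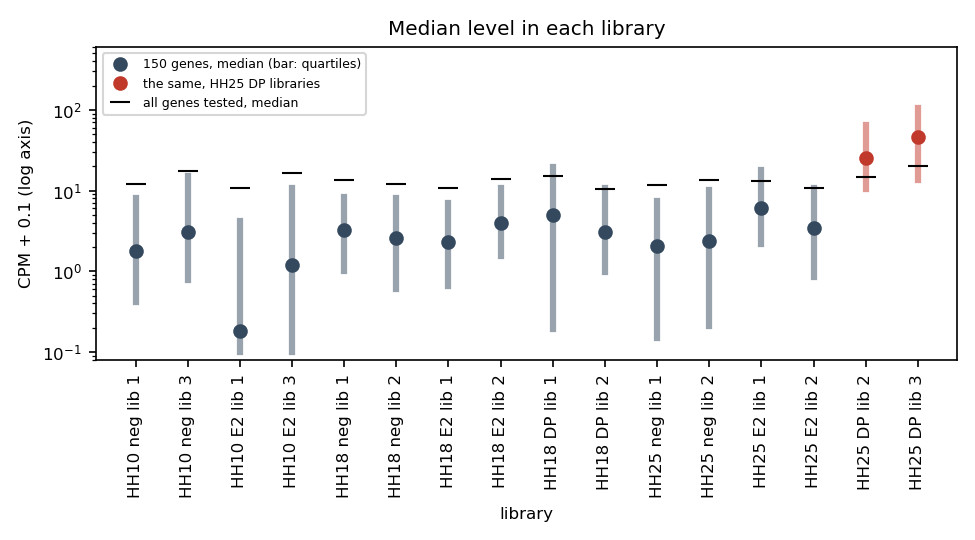
Median level of the 150 genes in each library (dots, with bars from the lower to the upper quartile) and median over all genes tested (dashes), in CPM on a log axis after adding 0.1. The HH25 DP medians of 25.4 and 45.6 CPM lie above the dashes of the same libraries, and the other 14 medians lie below theirs.

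Scores ran from 1.43 to 4.23 on the log2(CPM + 1) scale, with a median of 1.81, so that the median gene was 3.51-fold above its next highest population on that scale, which understates the ratio of low genes. A total of 56 genes had a score of at least 2 and 6 of at least 3. The highest score belonged to ENSGALG00000016740 on chromosome 1 (130716873 to 130847582, on the plus strand with 21 exon intervals), which had 43.6 and 54.7 CPM in the HH25 DP libraries. It had 4.92 and 0.188 CPM in HH25 E2 cells and 3.6 and 0 CPM in HH25 negative cells. In HH18 negative cells it had 0.910 and 0.248 CPM, in the HH10 negative libraries 1 and 3 it had 0 and 0.432 CPM, and it had no count in the HH18 E2, HH18 DP and HH10 E2 libraries. The gene was thus below 1 CPM in all HH10 and HH18 libraries, and both HH25 DP libraries were far above the others.

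The gene that followed, ENSGALG00000007466, lies on the plus strand of chromosome 4 (11210631 to 11219813) and had 102 and 130 CPM in the HH25 DP libraries. Its next highest population was HH18 DP, with 11.1 and 4.90 CPM. It had 4.02 and 3.21 CPM in HH18 E2 and 2.34 and 1.24 CPM in HH18 negative cells. The HH25 E2 libraries had 2.16 and 0 CPM, and negative cells of that stage had no count. It was present at a low level in all HH18 libraries, was at most 0.178 CPM in the HH10 libraries, and was far higher in both HH25 DP libraries than anywhere else.

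At the other end of the list, ENSGALG00000004852 on chromosome 17 (5555050 to 5612657) and ENSGALG00000038775 on chromosome 5 (6396873 to 6557255) were just inside the limit, with scores of 1.429 and 1.425 in the order given. ENSGALG00000028682 on chromosome 2 (92943205 to 92948715) and ENSGALG00000039990 on chromosome 17 (3145480 to 3214636) were just outside, with scores of 1.422 and 1.415. ENSGALG00000004852 had 71.0 and 98.6 CPM in the HH25 DP libraries and 73.6 and 12.3 CPM in the HH18 DP libraries, so that its groups overlapped. ENSGALG00000028682 had 16.2 and 14.04 CPM in the HH25 DP libraries. ENSGALG00000039990 had 60.2 and 157 CPM there.

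The genes covered a wide range of levels. Per kilobase of exonic length, the HH25 DP mean ran from 1.43 to 307 CPM, with a median of 15.7 CPM per kilobase. By total level, the 2 highest genes in HH25 DP cells were ENSGALG00000038775, at 883 ± 93 CPM (SD, n = 2) or 273 ± 29 CPM per kilobase, and ENSGALG00000009601 on chromosome 1 (30342085 to 30485295), at 651 ± 208 CPM or 195 ± 62 CPM per kilobase. Both were expressed in all 16 libraries. ENSGALG00000038775 was at 322 and 333 CPM in HH10 negative, 334 and 201 CPM in HH18 DP and 142 and 140 CPM in HH25 E2 cells, and was lowest in HH25 negative cells, at 15.9 and 26.7 CPM. The 2 lowest were ENSGALG00000033638 on chromosome 2 (125364885 to 125422366), at 2.81 ± 0.40 CPM, and ENSGALG00000023793 on chromosome 15 (1507752 to 1509124), at 3.03 ± 1.8 CPM. ENSGALG00000033638 had counts in only 2 of the 14 other libraries, at 0.496 CPM in HH18 negative library 2 and 0.414 CPM in HH18 E2 library 2. In all, 30 of the 150 genes had an HH25 DP mean under 10 CPM and 30 had a mean of at least 100 CPM.

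The HH25 DP values rest on at least 22 counts each. The lowest count of a listed gene was 22 in library 2 and 103 in library 3, with medians of 321.5 and 1709.5 counts. All 150 genes passed the filter on low counts, which they could do through the HH25 DP libraries alone. With the filter run on only the libraries compared, 110 to 135 of them passed in the 9 comparisons made below without HH25 DP cells, so that shares of 150 in those comparisons include genes with few counts.

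For 137 of the 150 genes, both HH25 DP libraries were above all 14 other libraries. Of the 13775 tested genes that could be chosen, 4.89% had that pattern. The rule favours it, so that nothing is read from the difference. Without the libraries numbered 3, HH25 DP library 2 was above the other 12 libraries for 143 genes (10.4% of the eligible tested genes). For the remaining 13 genes at least 1 other library was above the lower HH25 DP library. The highest other value was that of HH18 DP library 1 for 6 of them, of HH10 negative library 3 for 4 and of HH10 E2 library 3 for 3. ENSGALG00000016147 and ENSGALG00000031693, named after their values were seen, were exceeded in both HH25 DP libraries: the first had 11.2 and 41.1 CPM there and 43.2 CPM in HH10 E2 library 3, and the second had 27.9 and 24.3 CPM there and 33.1 CPM in HH18 DP library 1.

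Within the HH25 DP group the genes were mostly higher in library 3. This held for 114 of the 150 genes (76.0%), against 56.5% of all genes tested. The median log2 ratio of library 3 to library 2, on CPM + 1, was 0.48 for the 150 genes and 0.12 for all genes tested, and 44 genes (29.3%) differed more than 2-fold between the libraries, against 19.9% of all genes tested. Library 3 is the deeper library and is among those numbered 3.

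**Figure D3:**
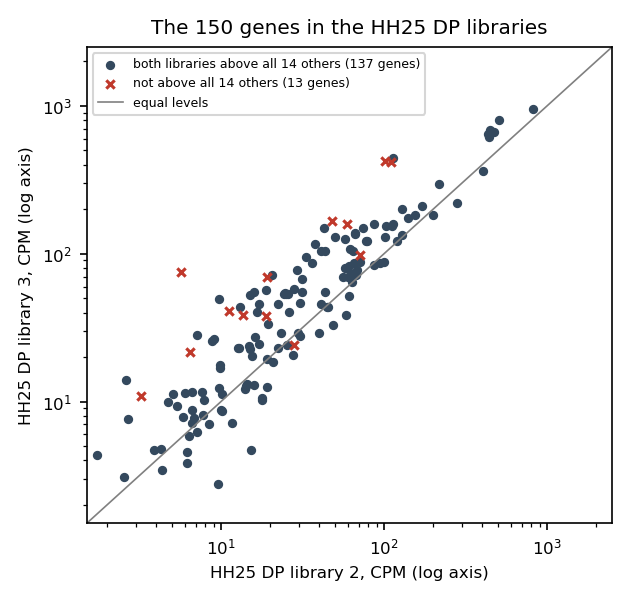
Level of each of the 150 genes in HH25 DP library 2 (horizontal) and library 3 (vertical), in CPM on log axes, with the line of equal levels. Dots are the 137 genes with both libraries above all 14 others, crosses are the other 13 genes, and most points lie above the line.

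The choice was repeated without each HH25 DP library, and the genes so chosen were read in the library left out, an alternative added after the data had been seen. The other 14 libraries still took part in the choice, which favours low values there, so that the following counts are descriptions and the shares of other genes beside them are no measure of chance. Of 150 genes chosen without library 3, 125 were above all 14 libraries of the other groups in library 3, where 13.9% of the eligible tested genes were, and 134 were above all 7 group means. Of 150 genes chosen without library 2, 102 were above all 14 libraries in library 2, where 7.30% of the eligible tested genes were, and 133 were above all 7 group means. The median score in the library left out was 1.76 for library 3 and 1.22 for library 2. The lists chosen without library 3 and without library 2 shared 104 and 106 genes with the list of 150. Without the 3 libraries numbered 3 the list shared 106 genes.

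The population closest to HH25 DP cells differed from gene to gene. The next highest mean was that of HH25 E2 cells for 43 genes (28.7%), of HH18 DP cells for 31 (20.7%), of HH10 negative cells for 27, of HH18 negative cells for 16, of HH18 E2 cells for 14, of HH10 E2 cells for 13 and of HH25 negative cells for 6. Among the eligible genes that were also highest in HH25 DP cells (2874 with the list) but had lower scores, the same shares were 14.6% for HH25 E2, 10.6% for HH18 DP, 33.9% for HH10 negative and 9.47% for HH25 negative cells. These differences between shares were not tested. Without the libraries numbered 3 the next highest mean of the 150 genes was that of HH25 E2 cells for 46, HH18 DP for 31, HH18 negative for 21, HH18 E2 for 18, HH10 negative for 12, HH10 E2 for 12 and HH25 negative for 10 genes, so that HH10 negative cells were next highest for 12 genes in place of 27.

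By group, the median of the 150 mean levels was 1.76 CPM in HH10 E2 cells, 2.90 CPM in HH18 E2 cells and 5.34 CPM in HH25 E2 cells. In negative cells it was 2.42, 2.99 and 3.04 CPM at the same stages. It was 3.77 CPM in HH18 DP and 38.2 CPM in HH25 DP cells. HH10 E2 cells had the lowest mean of all 8 groups for 66 genes and HH25 negative cells for 33. In HH10 E2 cells 43 of the 150 genes (28.7%) had no count in either library, against 12.1% of all genes tested, and in HH25 negative cells 15 genes (10.0%) had none, against 8.33%. The rule favours low values outside HH25 DP cells, so that nothing is read from these differences. HH10 E2 libraries 1 and 3 also lacked counts for 22.1 and 15.6% of all genes tested, against 6.81 and 3.32% in those of HH10 negative cells. The part of this in the levels was not tested.

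Genes of the list had longer spans than other genes, a difference that was not tested. Their median span, from the first to the last exon base, was 26700 bases (quartiles 8600 and 62700), against 11400 bases for the 13775 eligible genes tested. A span of at least 100000 bases was found in 27 of the 150 genes (18%) and in 5.74% of the eligible genes tested. Exonic length differed less, with medians of 2460 and 1870 bases, as did the number of exon intervals, with medians of 9.5 and 8. In the 2379 tested genes that were also highest in HH25 DP cells but scored below the limit, the median span was 19300 bases. Of these, 10.6% spanned at least 100000 bases, and the medians of exonic length and exon intervals were 2390 bases and 10. The longer spans were thus in part shared by genes outside the list. Among genes with 1000 to 4000 exonic bases the median span was 24600 bases for 112 listed genes and 12000 bases for the other tested genes. Single-exon genes made up 9 of the 150 (6.00%) and 4.46% of the eligible genes tested.

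Sets of 150 genes chosen by the same score for each of the other 7 populations had median spans from 3060 bases (HH25 negative) to 16900 bases (HH10 negative). The 150 genes furthest below all other groups in HH25 DP cells had a median span of 4400 bases. Spans were shorter when HH25 DP library 3 was left out of the choice (median 19400 bases), longer without library 2 (31900 bases), and 20000 bases without the 3 libraries numbered 3, where the sets of the other 7 populations had medians of 3490 to 13700 bases. The 763 tested genes of at least 100000 bases that were not listed had a median of 16.4 and 26.3 CPM in the HH25 DP libraries 2 and 3 and of 7.01 to 17.8 CPM elsewhere. The median of all genes tested was higher there too, at 14.6 and 20.3 CPM against 10.4 to 17.4 CPM elsewhere, and in HH25 E2 library 2 long genes stood similarly above all genes, at 14.1 and 10.7 CPM. The part of depth or of library make-up in the spans was not tested.

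**Figure D4:**
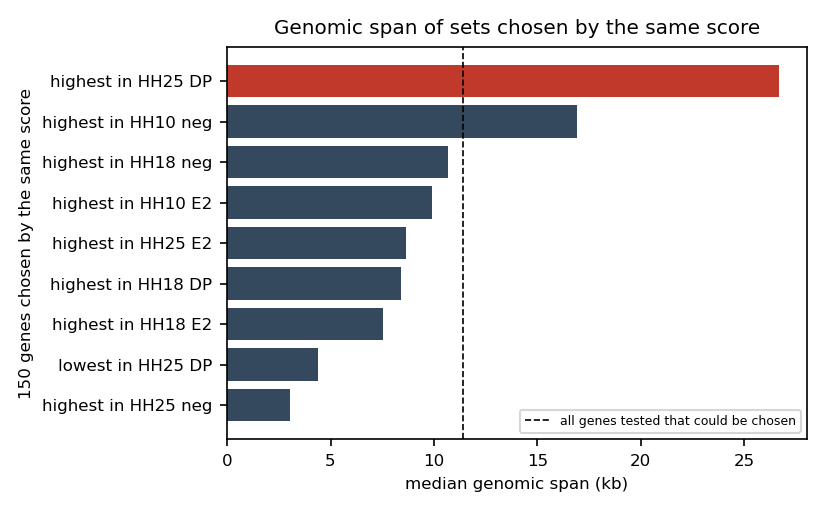
Median genomic span, in kilobases, of 150 genes chosen by the same score for each population (bars) and of all tested genes that could be chosen (dashed line), with neg for negative cells. The set highest in HH25 DP cells has a median of 26700 bases, and the other 8 sets lie between 3060 and 16900 bases.

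Of the autosomes, chromosome 1 held 28 of the listed genes (18.7%, against 14.6% of the eligible genes tested), chromosome 2 held 17 (11.3%, against 9.21%) and chromosome 4 held 16 (10.7%, against 7.85%). Chromosome 6 held 11 (7.33%, against 3.56%) and chromosome 10 held 10 (6.67%, against 3.06%). Shares were lower on chromosome 3, with 9 genes (6%, against 8.64%), and on chromosome 5, with 7 (4.67%, against 6.8%). These differences between shares were not tested. The listed genes were rarely neighbours: 14 genes formed 7 pairs with no other annotated gene start between them, 4 pairs on a single strand, and there was no run of 3. The other 8 sets chosen in the same way had 10 to 19 genes in pairs or longer runs.

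On chromosome 10, ENSGALG00000003005 (3543223 to 3555508) and ENSGALG00000003014 (3561047 to 3566864) lie 5538 bases apart on the plus strand, with 29.8 and 29.0 CPM and 87.1 and 83.3 CPM in the HH25 DP libraries. The highest other library was at 10.98 and 10.3 CPM. Also on chromosome 10, ENSGALG00000008007 (19181613 to 19214397) and ENSGALG00000008043 (19231702 to 19258499) lie on opposite strands, with 7.12 and 28.4 CPM and 201 and 183 CPM. On chromosome 4, ENSGALG00000000112 (2013437 to 2017552) and ENSGALG00000004936 (2023971 to 2030901) also lie on opposite strands, with 17.8 and 10.6 CPM and 59.8 and 69.1 CPM. On chromosome 6, ENSGALG00000008999 (27778781 to 27799753) had 170 and 211 CPM and its neighbour ENSGALG00000009048 (27848491 to 28021075) had 25.01 and 53.3 CPM.

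On chromosome 1, ENSGALG00000040855 (35908165 to 35944608) and ENSGALG00000010148 (35942364 to 36065234) overlap on the minus strand, with 17.2 and 24.5 CPM and 15.99 and 12.9 CPM, so that their reads may be shared. The chromosome 13 pair, ENSGALG00000036629 (1851537 to 1852461) and ENSGALG00000038693 (1852536 to 1854490), lies 74 bases apart, with 10.2 and 8.62 CPM and 14.3 and 12.7 CPM, and the levels of such close genes are less certain than their sum. The last pair, ENSGALG00000017242 (188780367 to 188784802) and ENSGALG00000017244 (188867453 to 188868571), lies on opposite strands of chromosome 1, with 59.0 and 80.4 CPM and 25.2 and 24.0 CPM. In all, 6 of the 150 genes (4%) shared exon bases with another annotated gene, against 7.26% of the eligible genes tested, and each can be uncertain for that reason.

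The size of the difference depended on the population it was taken against. The median difference of the 150 genes, on the log2(CPM + 1) scale, was 3.16 against HH25 negative cells, 2.41 against HH25 E2 cells and 2.57 against HH18 DP cells, and over all genes tested it was 0.285, 0.175 and 0.226 in the same order. All 150 means were higher by the rule, and no test is given.

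The groups without HH25 DP cells entered the choice only through the highest of their means, and differences among them were tested. That choice favours low values in these groups, and some genes passed the filter only through libraries outside a comparison. The shares of all genes beside those of the members are therefore no measure of chance. A gene is called where edgeR's quasi-likelihood test gave an adjusted p below 0.05 (Benjamini-Hochberg, over all genes tested). Of the 9 comparisons between these groups, 5 called members of the list and 4 called none, and 33 of the 150 genes (22%) were called at least once. Of all genes tested 20.2% were, so that the share called at all is near the background. The most calls came from E2 cells between HH10 and HH18.

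**Figure D5:**
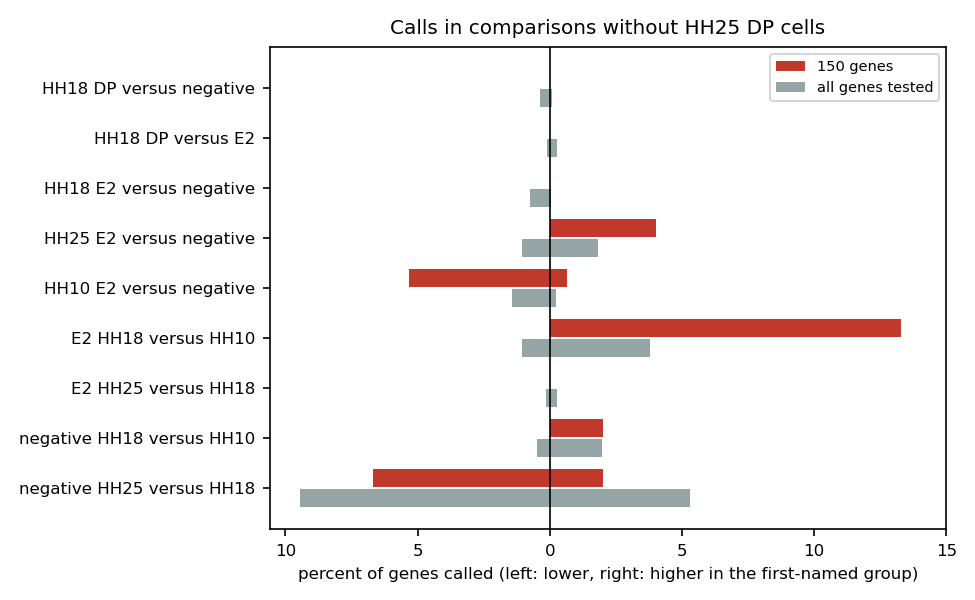
Percent of the 150 genes (red) and of all 14676 genes tested (grey) called in each of the 9 comparisons without HH25 DP cells, with calls lower in the first-named group to the left of 0 and calls higher to the right. The longest red bar is the 13.3% higher in HH18 than HH10 E2 cells, and 4 comparisons have no red bar.

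At HH18, the first stage with DP cells, edgeR called no member between DP and the other cells, while DESeq2 called some. Of the 150, edgeR called 0 between DP and negative cells, where 0.463% of all genes were called (0.0954% higher and 0.368% lower). It called 0 between DP and E2 cells, where 0.368% were called (0.273% higher and 0.0954% lower). With so few of all genes called, 0 members is near the background. At an unadjusted edgeR p under 0.05 were 22 and 17 members, and 8.33 and 9.04% of all genes tested. DESeq2 called 11 of the 150 members (9 higher and 2 lower) and 8 (5 higher and 3 lower) in the same comparisons. It called 2.48 and 2.74% of all genes it fitted, again smaller shares than those of the members. These shares are no measure of chance either. The median difference of the members was 0.10 against negative cells and 0.16 against E2 cells on the log2(CPM + 1) scale, beside 0.00 and -0.05 over all genes tested, and 85 and 83 of the 150 genes had the higher mean in DP cells. Between E2 and negative cells at HH18, 0 members were called by edgeR and by DESeq2. Of all genes, edgeR called 0.79% (0.0545% higher and 0.736% lower) and DESeq2 2.8%. An unadjusted edgeR p under 0.05 was reached by 8 of the 150 members and by 8.07% of all genes tested.

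At HH25, more of the listed genes were higher than lower in E2 cells against negative cells. Of the 150 genes, 6 (4%) were called higher in E2 cells and 0 lower, where 1.84% of all genes were called higher and 1.04% lower, 2.88% in all. The mean was higher in E2 cells for 117 genes (78.0%), against 52.6% of all genes tested, with a median difference of 0.60 beside 0.07 on the log2(CPM + 1) scale. The highest fold among the 6 was that of ENSGALG00000004936, described above for its place on chromosome 4. It had 28.5 and 12.1 CPM in HH25 E2 cells, and the HH25 negative libraries had no count. It was 197.5-fold higher in E2 cells at a floor of 3 counts, which is not a lower limit (adjusted p = 0.0048). Its mean level was 0 CPM in HH10 E2, 1.74 CPM in HH18 E2, 3.51 CPM in HH18 DP, 20.3 CPM in HH25 E2 and 64.5 CPM in HH25 DP cells. The count of 6 fell without E2 library 1 and without negative library 1, fits that leave 1 library in a group. In the second of these the members' share was below that of all genes, and without negative library 2 it was near that of all genes. The count was 0 with only these 4 libraries in the fit, where 0.518% of all genes were called. It was 18 with DESeq2, which called 8.59% of all genes it fitted.

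At HH10 the direction was the opposite, with 8 members (5.33%) called lower and 1 (0.667%) higher, where 1.42% of all genes were called lower and 0.238% higher, 1.66% in all. The mean was lower in E2 cells for 106 genes and the median difference was -0.38, beside -0.07 over all genes tested. Of the 8 lower genes, 4 had no count in the HH10 E2 libraries. Libraries 1 and 3 of HH10 E2 cells lacked counts for 22.1 and 15.6% of all genes tested, against 6.81 and 3.32% in those of HH10 negative cells. The part of this in the calls was not tested. The lowest by fold was ENSGALG00000013022, a gene of 51 exon intervals on chromosome 1 (61471636 to 61671542). It had 3.10 and 14.3 CPM in the negative libraries 1 and 3, and the E2 libraries lacked counts for it. It was lower in E2 cells by 167.6-fold at a floor of 3 counts, which is not a lower limit (adjusted p = 0.0068). The higher gene, ENSGALG00000037856 on chromosome 12 (17238314 to 17341991), had 22.0 and 32.2 CPM in E2 and 3.85 and 2.67 CPM in negative cells, a log2 fold change of 3.02 (SE 0.65, adjusted p = 0.03). That call was lost without E2 library 3 (adjusted p = 0.058), negative library 1 (0.14) or negative library 3 (0.27). Its level in HH25 DP cells was 79.1 and 121 CPM. Without the libraries numbered 3, which leaves 1 library in each HH10 group, 1 member was called, lower in E2 cells, and ENSGALG00000013022 and ENSGALG00000037856 had adjusted p of 0.16 and 0.45. Without negative library 3 alone the count was 5, with only these 4 libraries it was 0, and with DESeq2 it was 25, with 5.04% of all genes called.

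The largest count was that of E2 cells from HH10 to HH18, where the time of electroporation changed together with stage. Here 20 of the 150 genes (13.3%) were called higher at HH18 and 0 lower, where 3.8% of all genes were called higher and 1.04% lower, 4.84% in all. The mean was higher at HH18 for 100 genes, and the median difference was 0.34 beside 0.09 over all genes tested on the log2(CPM + 1) scale. Of the 20 genes, 12 were without counts in the HH10 E2 libraries. These libraries lacked counts for 49.3 and 36.7% of the 150 genes and for 22.1 and 15.6% of all genes tested, more of all genes tested than libraries 1 and 3 of HH10 negative cells (6.81 and 3.32%), and the part of this in the calls was not tested. The highest fold was that of ENSGALG00000005932 on chromosome 20 (9303439 to 9357193), with 8.17 and 18.3 CPM in HH18 E2 libraries and none in those of HH10. It was 248-fold higher at HH18 at a floor of 3 counts, which is not a lower limit (adjusted p = 0.0033). It reached 44.9 and 43.8 CPM in HH25 DP cells. The 20 genes had 0.792 to 196 CPM in HH18 E2 cells, with a median of 5 CPM. The count was 8 without the libraries numbered 3, 0 with only the 4 E2 libraries in the fit and 41 with DESeq2, which called 12.6% of all genes.

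From HH18 to HH25 no member's change in E2 cells passed the edgeR test. By edgeR 0 members were called, where 0.429% of all genes were (0.273% higher and 0.157% lower), so that 0 is near the background. Its unadjusted p was under 0.05 for 12 members, all of them higher at HH25, and for 10.7% of all genes tested in either direction. DESeq2 called 7 members, all higher, with 3.11% of all genes. The mean was higher at HH25 for 95 of the 150 genes, with a median difference of 0.35 beside -0.03 over all genes tested. A p that misses the threshold does not show that the levels were equal.

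In negative cells 3 members were called higher at HH18 than at HH10 (2%, where 1.96% of all genes were) and 0 lower (0.477% of all genes), with 2.44% of all genes called in all. These were ENSGALG00000004261 on chromosome 10 (7007996 to 7035035), ENSGALG00000004903 on chromosome 11 (10629242 to 10799049) and ENSGALG00000005628 on chromosome 20 (8532484 to 8564351), the last 2 named after their values were seen. ENSGALG00000004261 had 0.260 and 1.98 CPM at HH18, 10 counts in all, and no count at HH10. It was 17.6-fold higher at a floor of 3 counts (95% counting interval from 11.84 up, adjusted p = 0.037). It did not pass the filter on low counts with only the negative libraries of these stages in the fit. Its call was lost without HH10 negative library 1 (adjusted p = 0.16), HH10 negative library 3 (0.28) or HH18 negative library 2 (0.44). ENSGALG00000004903 had 1.95 and 2.73 CPM at HH18 and 2 counts at HH10, a ratio of 68.7 in pooled counts (95% counting interval 17.2 to 597). ENSGALG00000005628, which shares exon bases with another gene on its strand, had 33.0 and 17.1 CPM at HH18 and 3.06 and 3.96 CPM in the HH10 libraries 1 and 3. Its level was 173 and 50.4 CPM in HH18 DP and 404 and 363 CPM in HH25 DP cells. The count of 3 fell without either HH10 negative library and without HH18 negative library 2, fits that leave 1 library in a group. The share of all genes called fell in each of them too. With DESeq2 the count was 12, with 6.37% of all genes called.

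Between HH18 and HH25 negative cells had 10 members (6.67%) called lower and 3 (2%) higher. This comparison called many genes, 9.46% of all genes lower and 5.32% higher, 14.8% in all, so that the members' shares are below the background in both directions. The mean was lower at HH25 for 92 of the 150 genes, with a median difference of -0.33 beside -0.07 over all genes tested. The lowest by fold, ENSGALG00000040478 on chromosome 1 (193324498 to 193358592), had 2.60 and 3.22 CPM at HH18 and lacked counts at HH25. It was lower there by 27.6-fold at a floor of 3 counts (adjusted p = 0.025), and the 95% counting interval of its ratio in pooled counts reached up to 0.04715. That call did not survive the loss of a library, with adjusted p of 0.056 and 0.07 without HH18 libraries 1 and 2 and of 0.14 and 0.059 without HH25 libraries 1 and 2. In the other direction ENSGALG00000039216 on chromosome 7 (6764395 to 6790429) went from 1.56 and 0.248 CPM to 7.40 and 22.5 CPM, a ratio of 10.9 in pooled counts (95% counting interval 6.30 to 20.7, adjusted p = 0.022). That call was lost without HH18 library 1 (0.06) or 2 (0.18) or HH25 library 2 (0.076). The other 2 higher genes, named after their values were seen, were ENSGALG00000007047 on chromosome 5, at 4.55 and 2.23 CPM and then 17.2 and 26.3 CPM, and ENSGALG00000041255 on chromosome 6, at 15.5 and 8.43 CPM and then 40.6 and 52.2 CPM. ENSGALG00000007047 also had the highest level per kilobase of the list in HH25 DP cells, at 307 ± 51 CPM per kilobase. The count of 13 fell without either HH18 negative library and without HH25 negative library 1, fits that leave 1 library in a group. The share of all genes called fell in each of these fits as well. With DESeq2 the count was 30, with 21.1% of all genes called.

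Whether the gap between E2 and negative cells differed between stages was tested in 2 further comparisons, added after the data had been seen. From HH10 to HH18 the time of electroporation changed together with stage. Between HH18 and HH10 the gap moved up for 3 members and down for 0, where 0.504% of all genes moved up and 0.3% down, 0.804% in all. Between HH25 and HH18 it moved for 0 members by edgeR, where 0.0204% of all genes moved, all of them up. In that test 18 members had an unadjusted p under 0.05, as did 10.4% of all genes tested. DESeq2 called 8 members, with 2.16% of all genes. The opposite directions seen at HH10 and HH25 were not set against each other in a test.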

How the data were processed

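RNA-seq was made from sorted cells with a full-length low-input cDNA kit and Nextera XT libraries, read in short pairs, per the labels' protocols. The authors deposited raw read counts per gene for 16 libraries, without normalization. The submitters' processing notes name galGal5, DESeq2, featureCounts, Subread (1.4.5) and STAR (2.4.2a). The sources used here do not give strandedness or multi-mapping settings, so that overlapping, antisense or near-identical genes may share reads. Column names carry library numbers 1 to 3 that match the sample titles only in part; HH10 and HH25 DP columns were assigned to their group only.

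Levels are CPM scaled by column totals, and errors are SD over 2 libraries. Tests used edgeR 4.0.16 (R 4.3.3; quasi-likelihood F test, TMM, filterByExpr defaults, 14676 genes) in 1 fit of 8 group means with 8 residual degrees of freedom, with adjustment over all genes tested. The edgeR script was tested on simulated data. The 2 tests of a difference between contrasts were added after the data were seen. A fold against 0 counts was taken at a floor of 3 counts over the group and is not a lower limit. Intervals are exact binomial. The protocol names no molecular identifiers, so that intervals and floors cover counting error only. Alternatives used DESeq2 1.42.0, other filters and scaling, fewer groups, a replicate block and single libraries left out. Shares of all genes called by DESeq2 are over every gene with a count in any library. These are more genes than the 14676 of edgeR and include genes with very few counts, so that the shares of the 2 tools have different bases.

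Library numbers were not taken to pair libraries. The members, lists and tests were chosen with earlier results of these data known. The rule for named genes, without gene names, was: the genes with the 2 highest scores, 2 genes inside and 2 outside the limit, the 2 highest and 2 lowest HH25 DP means, neighbouring members, and the called member with the highest and the lowest fold in each comparison without HH25 DP cells. No sequence is shown. The marker lists, which need gene names, were not used.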

Additional observations from a re-analysis of the deposited data

Results flagged for a closer look

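The difference between E2 and negative cells changed between HH10 and HH18 for 3 of the 150 genes, where 0.504% of all genes tested changed in that direction (edgeR test of the difference between the 2 contrasts). The time of electroporation changed together with stage here, and the 2 cannot be told apart. For ENSGALG00000013022 on chromosome 1 negative cells were at 8.71 ± 7.9 CPM and E2 cells at 0 CPM at HH10, and 4.35 ± 1.9 and 3.91 ± 2.1 CPM at HH18 (SD, n = 2), with a fitted difference of 10.0 on the log2 scale (adjusted p = 0.025) that is no bound because of the 0 counts. ENSGALG00000015001 on chromosome 3, which shares exon bases with another gene on its strand, was at 24.1 ± 15 and 0.0993 ± 0.14 CPM at HH10 and at 10.1 ± 2.3 and 12.4 ± 5.1 CPM at HH18, a difference of 7.57 (adjusted p = 0.0072). ENSGALG00000017242 on chromosome 1 was at 8 ± 4.4 and 0.488 ± 0.12 CPM at HH10 and at 2.81 ± 0.81 and 10.8 ± 2.3 CPM at HH18, a difference of 5.78 (adjusted p = 0.014). In each case the E2 libraries were low at HH10 and the gap to negative cells was gone or turned at HH18. The HH10 E2 libraries 1 and 3 lacked counts for 22.1 and 15.6% of all genes tested, more than those of HH10 negative cells (6.81 and 3.32%). The part of this in the 3 calls was not tested. The count of 3 fell most without the libraries numbered 3, without HH10 negative library 3 and without HH18 negative library 2. It rose without either HH10 E2 library. Each of these fits leaves 1 library in a group, and the share of all genes called fell or rose with the count. With DESeq2 the count was 11 (2.49% of all genes). The same test between HH18 and HH25 called 0 members by edgeR and 8 by DESeq2, which called 2.16% of all genes. An unadjusted edgeR p under 0.05 was reached by 18 members and by 10.4% of all genes tested.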

How the results depend on the processing

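With 2 libraries a group, the counts of calls among the 150 genes moved with the tool, the libraries in the fit and single libraries. Shares in brackets are those of all genes called under the same setting, taken over the genes fitted in that setting. They moved as well, also where single libraries were left out. DESeq2 called 11 (2.48%, HH18 DP against negative), 8 (2.74%, HH18 DP against E2), 18 (8.59%, HH25 E2 against negative), 25 (5.04%, HH10 E2 against negative), 41 (12.6%, E2, HH10 to HH18), 7 (3.11%, E2, HH18 to HH25), 12 (6.37%) and 30 (21.1%) for negative cells (HH10 to HH18 and HH18 to HH25), and 8 (2.16%) and 11 (2.49%) for the tests of a difference (HH25 against HH18 and HH18 against HH10). With only the groups compared in the fit, 110 to 135 members were tested and the counts were 1 (0.797%) and 3 (5.35%) at HH18 (DP and E2 against negative), 0 for E2 against negative at HH25 (0.518%) and HH10 (0%) and for E2 from HH10 to HH18 (0.219%), 1 (0.693%) for E2 from HH18 to HH25, 15 (15.2%) and 3 (12.1%) for negative cells, and 0 (0.349%) for the difference of HH18 against HH10, where 140 members were tested. Without a filter they were 1 (0.541%, HH18 DP against E2), 12 (3.28%, HH25 E2 against negative), 31 (5.3%, E2, HH10 to HH18) and 6 (0.933%, difference, HH18 against HH10), and the last was 5 (1.23%) with the stricter filter of 5 CPM in 2 libraries. Without the libraries numbered 3 they were 1 for HH18 DP against negative (0.528%), HH10 E2 against negative (0.836%), negative cells from HH10 to HH18 (1.02%) and the difference of HH18 against HH10 (0.582%), and 8 (2.7%) for E2 from HH10 to HH18.

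Leaving out 1 library gave 14 to 18 members for E2 from HH10 to HH18, 5 to 11 for HH10 E2 against negative, 0 to 1 for HH18 DP against E2, 2 to 7 for HH25 E2 against negative, 0 to 3 and 3 to 13 for negative cells in the order above, and 0 to 6 and 0 to 2 for the differences of HH18 against HH10 and HH25 against HH18. The labels do not say what a library number marks, and the correlation of the deviations of same-numbered libraries was 0.28 for HH10 negative and E2 cells, whose libraries 3 were both the deeper of their group, and -0.12 to -0.01 for the other 4 pairs of groups, so that the numbers were not taken as pairs. A replicate block on these numbers changed the count beyond 1.5 times only for negative cells from HH10 to HH18, to 1 (1.76%), where ENSGALG00000004261 had an adjusted p of 0.09; it also ended the call of ENSGALG00000037856 at HH10 (0.052) and no other among the 7 named genes that were called. With the HH18 DP numbers crossed 0 members were called between HH18 DP and E2 cells. The list itself kept 104 to 146 genes without a single library and 99 when the lower HH25 DP library was set against the highest other library. It kept 131 and 109 with pseudocounts of 0.5 and 5 and 146 with TMM scaling. The causes were not tested. Each of the 7 named genes that were called missed the threshold under at least 1 alternative, and 0 values were reversed. Genes without a count in the lower group could not reverse, so that nothing is read from that 0.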

Other observations

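The same score gave lists of different strength in other populations. The 150th score was 1.43 for HH25 DP cells, 1.53 for HH25 negative cells, 1.19 for HH10 negative cells, 1.13 for HH10 E2 cells, 0.897 for HH18 negative cells, 0.865 for HH25 E2 cells, 0.652 for HH18 E2 cells and 0.601 for HH18 DP cells. A score over 1 was reached by 328 eligible genes for HH25 DP cells, 490 for HH25 negative cells and 49 for HH18 DP cells. At HH18 the 150 genes highest in DP cells had both DP libraries above all 14 other libraries for 67 genes, against 137 at HH25. In the sets of the other populations the same pattern held for 144 (HH25 negative), 136 (HH10 E2), 128 (HH10 negative), 119 (HH18 negative), 109 (HH18 E2) and 99 (HH25 E2) genes. The rule favours this pattern and the score limits differ, so that nothing is read from these counts.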
